A study of Homo sapiens with 91 samples.

Results

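RNA of MOLT4 cells, a human acute lymphoblastic leukemia line, was compared between cells given KB-0742, an inhibitor of the kinase CDK9, for 4 h and cells given DMSO vehicle for the same time. The comparison took every MOLT4 library that the labels place in those 2 groups, 4 with KB-0742 (replicates 1 to 4) and 3 with vehicle (replicates 1, 3 and 4), which is 7 of the 91 libraries of the series and 7 of the 35 from MOLT4. The other libraries used are MOLT4 with KB-0742 or DMSO at 2 h and 8 h, MOLT4 with KI-CDK9d-32, a CDK9 degrader, at 4 h, and PSN1 (pancreatic adenocarcinoma) and RH4 (rhabdomyosarcoma) cells with KB-0742 or DMSO at 4 h, each in 4 libraries. The design text writes RH1 where the labels write RH4. The labels give no dose for either compound and name no genetic change in the cells. They speak of biological replicates without saying that these were separate cultures, so a p-value measures only the spread between these libraries, which may be technical.

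CDK9 pairs with cyclin T1 or cyclin T2 to form P-TEFb, the kinase that releases RNA polymerase II from its pause near the start of a gene and keeps it elongating. Part of the P-TEFb of a cell is held inactive in a particle built on the 7SK RNA, in which HEXIM1 is the inhibitory protein. HEXIM1 mRNA is widely used as a readout of CDK9 activity, and short-lived transcripts such as those of MYC and MCL1 are among those best known to depend on CDK9 in leukemia cells.

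Gene counts summed to between 2764089 and 2905453 in the vehicle libraries and between 1651616 and 2952969 with KB-0742, and 11664 genes had enough counts to be tested. Every lysate had received an equal quantity of control RNA from the ERCC and SIRV sets (spike-ins). Spike-ins took 13.97%, 21.2% and 12.1% of counts in vehicle replicates 1, 3 and 4, and 20.9%, 16.3%, 49.4% and 18.1% in KB-0742 replicates 1 to 4. In this share KB-0742 replicate 3 stood apart from the other 6 libraries, and replicate 3 was also the highest with vehicle and, at 39.5%, with the degrader at 4 h. The mean share was 15.8% ± 4.79 (SD, n = 3) with vehicle and 26.1% ± 15.6 (SD, n = 4) with KB-0742, and the difference did not pass a two-sided exact permutation test (p = 0.286, the smallest possible being 0.0571). Without KB-0742 replicate 3 the difference was 2.65 percentage points, against 10.4 with it. In the 3 same-numbered pairs KB-0742 was above vehicle by 6.89, 28.2 and 5.94 points (two-sided exact sign-flip permutation p = 0.25, the smallest that 3 pairs allow). In gene counts KB-0742 replicate 4 stood apart, with a chi-square per degree of freedom of 8.698 to 9.77 against the other treated libraries, which gave 3.67 to 5.31 among themselves. Without it 1945 genes were called higher and 1898 lower, against 2108 and 2066 with it. In bulk samples of this kind, fewer cells and less RNA per cell cannot be told apart. Of 30 markers of T-lineage leukemia, 29 had counts in both groups and LMO1 was at 0. Of 18 epithelial markers, 14 were at 0 with vehicle and 15 with KB-0742, EPCAM and CDH1 among them in both groups, and the muscle genes MYOD1, PAX3 and DES were also at 0 in both.

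Levels are counts divided by library size (CPM) after TMM scaling, which sets the bulk of genes level between libraries, so that a change is set against the typical gene. Changes are log2 fold changes ± standard error from the edgeR quasi-likelihood test, and a gene is called higher or lower where its p-value, adjusted over all tested genes by Benjamini-Hochberg, is under 0.05. By this rule 35.8% of tested genes were called, 18.1% higher and 17.7% lower. The list counts that follow are to be read beside these shares, and no list was tested as a set. Without both replicate 3 libraries of 4 h, 1727 genes were called higher and 1629 lower, against 2108 and 2066 with them. The median change over all genes was −0.04 with TMM, −0.68 when libraries were scaled to their total gene counts, and −1.38 when they were scaled to the spike-ins. Scaling to total gene counts called 537 genes higher and 4956 lower. The spike-in scale called 52 higher and 5893 lower, or 63 and 3766 without KB-0742 replicate 3. The deposited log2(TPM + 1) values, written log2 TPM here, were tested by limma with no TMM scaling and called 199 higher and 6252 lower. The added 1 pulls the differences of low genes toward 0, so limma values of such genes are not comparable in size with edgeR fold changes. On the spike-in scale the median of each gene list counted in the results was under 0, and the spike-in value is given for each gene named as higher by TMM that lay below 0 there. Of the 47 named genes called higher by TMM, 3 kept that call on the spike-in scale.

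Among the P-TEFb genes, HEXIM1 and MEPCE were lower with KB-0742, and both cyclins T and the 7SK RNA were higher on the TMM scale. Of 14 tested members of the list of P-TEFb and its regulators, 3 were called higher (21.4%), 3 lower (21.4%) and 8 neither, near the 18.1% and 17.7% of all tested genes. The list does not hold 7SK. The same numbers were called without both replicate 3 libraries, and the list median was 0.20 by TMM and −1.09 by spike-ins. HEXIM1 (chr17, 45148502 to 45152101 on GRCh38 in GENCODE 29, as for the positions that follow, plus strand, 1 exon) stood at 13.5, 17.6 and 13.9 CPM in vehicle replicates 1, 3 and 4, and at 3.25, 2.11, 3.48 and 0.407 CPM in KB-0742 replicates 1 to 4. Its change was −2.80 ± 0.46 (adjusted p = 2.3e-06), and every treated library lay below every vehicle library. The level with KB-0742 rested on 15 counts in all, against 165 with vehicle. MEPCE, the enzyme that caps 7SK, read 29.3, 23.2 and 15.8 CPM with vehicle and 5.85, 3.69, 6.97 and 13.03 CPM with KB-0742, a change of −1.57 ± 0.42 (adjusted p = 0.0028). PPM1A, a phosphatase that acts on CDK9, read 17.7, 16.8 and 16.3 CPM with vehicle and 3.25, 5.27, 10.5 and 3.26 CPM with KB-0742, a change of −1.65 ± 0.38 (adjusted p = 0.00049). In neither gene did the groups overlap, which was a condition for naming any gene from a list and so adds no support.

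CCNT1, which encodes cyclin T1 (chr12, 48688458 to 48716998, minus strand, 9 exons), read 19.02, 12.3 and 11.2 CPM with vehicle and 48.1, 37.4, 42.5 and 28.1 CPM with KB-0742. Its change was 1.45 ± 0.26 (adjusted p = 1.7e-05) on the TMM scale, and its value was 0.09 on the spike-in scale and 0.32 (adjusted p = 0.18) by limma on log2 TPM. CCNT2, which encodes cyclin T2 (chr2, 134918235 to 134959342, plus strand, 9 exons), read 2.38, 2.79 and 5.44 CPM with vehicle and 22.8, 17.4, 10.5 and 11.8 CPM with KB-0742, a change of 2.12 ± 0.35 (adjusted p = 2.1e-06) by TMM. Its value on the spike-in scale was 0.83 and did not pass the test (adjusted p = 0.23). For both cyclins all 4 treated libraries lay above all 3 vehicle libraries. CDK9 itself did not pass the test. It read 10.6, 9.22 and 10.1 CPM with vehicle and 11.1, 13.2, 11.8 and 15.1 CPM with KB-0742, a value of 0.37 ± 0.33 (adjusted p = 0.4) on the TMM scale and −0.95 on the spike-in scale, and the groups did not overlap on the TMM scale.

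The 7SK RNA (chr6, 52995620 to 52995950, plus strand, 1 exon) read 18.2, 13.7 and 20.1 CPM with vehicle and 59.8, 67.5, 43.2 and 23.6 CPM with KB-0742, a change of 1.46 ± 0.30 (adjusted p = 0.00025), with values of 0.15 on the spike-in scale and 0.38 (adjusted p = 0.31) by limma on log2 TPM. All 4 treated libraries lay above the vehicle libraries, and KB-0742 replicate 4 was closest to them. 7SK is made by RNA polymerase III, carries no long poly(A) tail and has many near-identical pseudogenes, so its counts in a library primed on poly(A) are uncertain.

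**Figure D1:**
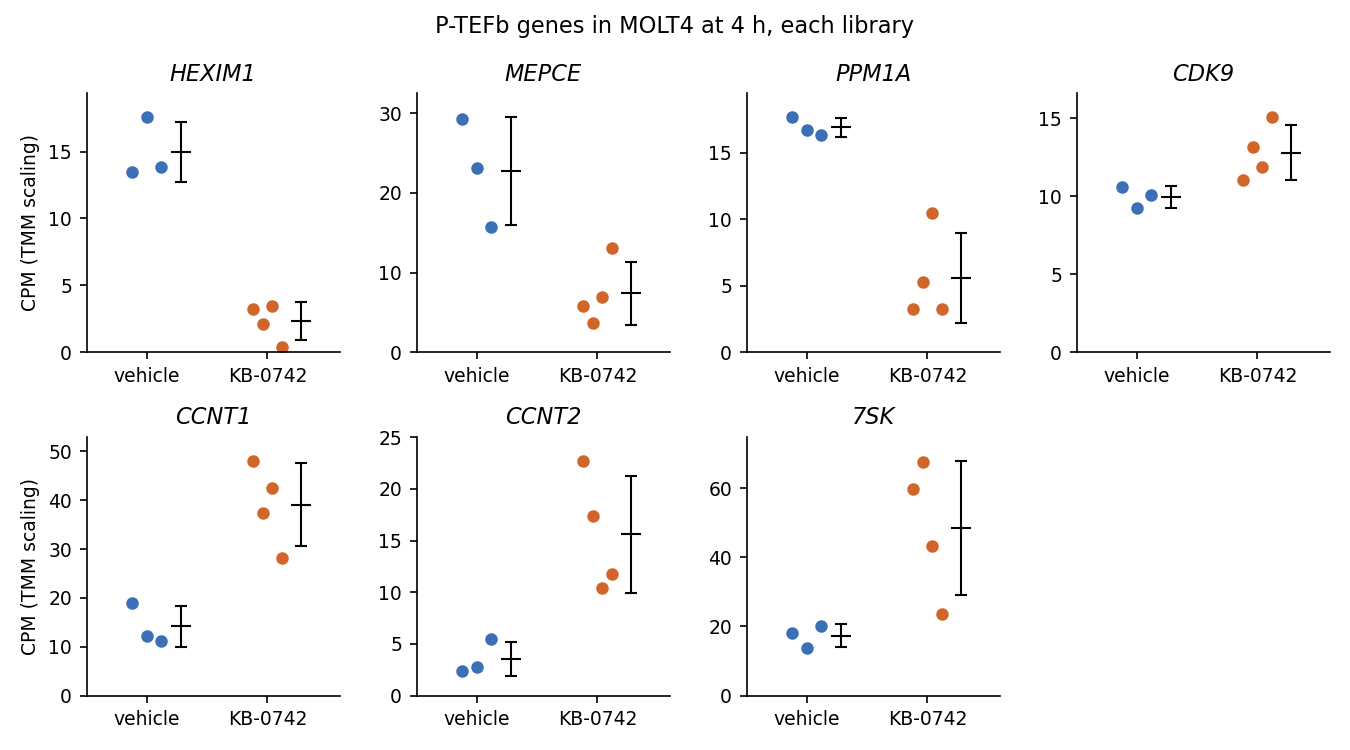
Levels of 7 P-TEFb genes in each MOLT4 library at 4 h, in CPM after TMM scaling, for vehicle (3 libraries) and KB-0742 (4 libraries). Points are libraries, and bars give the mean and SD. HEXIM1, MEPCE and PPM1A are lower with KB-0742 in every library, CCNT1, CCNT2 and 7SK are higher on this TMM scale, and CDK9 did not pass the test.

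The promoters of HEXIM1 and the cyclin T genes, which moved in opposite directions, are printed to show which core promoter letters each holds. Each run is 250 bases before to 50 after the gene's RefSeq start (GRCh38.p14), read 5′ to 3′ on the gene's strand, at chr17:45148225-45148524 (+) for HEXIM1, chr12:48716658-48716957 (−) for CCNT1 and chr2:134918572-134918871 (+) for CCNT2. Capitals mark TATAAA (known from core promoters), CCAAT (the box bound by NF-Y), GGGCGG (a GC box), CACGTG (an E box) and TGACGTCA (a CRE) on either strand.
HEXIM1: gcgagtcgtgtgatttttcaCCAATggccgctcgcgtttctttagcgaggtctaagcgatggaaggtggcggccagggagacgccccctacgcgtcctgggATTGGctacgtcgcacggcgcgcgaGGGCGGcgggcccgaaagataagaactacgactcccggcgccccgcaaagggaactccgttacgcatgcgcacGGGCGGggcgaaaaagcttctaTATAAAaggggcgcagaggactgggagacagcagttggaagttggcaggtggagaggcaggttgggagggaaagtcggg
CCNT1: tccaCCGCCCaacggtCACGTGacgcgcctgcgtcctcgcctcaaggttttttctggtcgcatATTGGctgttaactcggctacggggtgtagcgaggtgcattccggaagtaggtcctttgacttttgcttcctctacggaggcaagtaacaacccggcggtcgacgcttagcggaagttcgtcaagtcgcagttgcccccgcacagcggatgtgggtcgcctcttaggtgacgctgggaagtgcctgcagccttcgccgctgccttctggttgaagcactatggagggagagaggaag
CCNT2: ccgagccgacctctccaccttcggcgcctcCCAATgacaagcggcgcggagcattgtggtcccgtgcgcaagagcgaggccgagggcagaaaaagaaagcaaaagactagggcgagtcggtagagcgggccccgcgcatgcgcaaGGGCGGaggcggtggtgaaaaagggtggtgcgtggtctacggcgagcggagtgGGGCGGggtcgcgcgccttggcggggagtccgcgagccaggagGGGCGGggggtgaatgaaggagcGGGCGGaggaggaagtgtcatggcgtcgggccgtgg
Of the 3 promoters, HEXIM1 alone held TATAAA and CCNT1 alone held CACGTG. The letters TATAAA were present in 12% of all 27305 RefSeq promoters of this length and in 5.09% of the 8548 that belong to tested genes. Among the latter it stood in 6.19% of 1519 promoters of genes called higher, 3.81% of 1680 of genes called lower and 5.18% of 5349 of genes not called. CACGTG was in 7.43% of all promoters, and in 11.8%, 10.1% and 10.6% of those 3 sets. CCAAT was in 35.7% of all and in 39.0%, 39.3% and 38.3% of the sets. GGGCGG was in 44.6% of all and in 69.1%, 69.0% and 71.2%, and TGACGTCA in 1.98% of all and in 3.75%, 4.23% and 3.38%. These shares describe letters in the windows and were not tested.

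Of 24 tested pausing and elongation factors, 9 were called higher, 2 lower and 13 neither, with a list median of 0.29 on the TMM scale, −0.35 by total counts and −1.02 on the spike-in scale. RTF1, which works with the PAF1 complex, changed by 1.32 ± 0.17 on the TMM scale and stood at 0.01 on the spike-in scale without a call (adjusted p = 0.99). Elongin B (ELOB) changed by 0.92 ± 0.09 on the TMM scale, with −0.36 on the spike-in scale. LEO1, a PAF1 complex subunit, read 29.3, 36.02 and 23.4 CPM with vehicle and 7.80, 8.97, 5.57 and 13.8 CPM with KB-0742, a change of −1.65 ± 0.34 (adjusted p = 0.00016). NELFA, a subunit of the pausing complex NELF, changed by −0.77 ± 0.20 (adjusted p = 0.0018). In the super elongation complex, 2 of 8 members were higher and 2 lower, and without both replicate 3 libraries the counts were 0 and 2. AFF1, a scaffold of that complex, changed by −0.91 ± 0.23 (adjusted p = 0.0013).

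The cyclins L were also higher on the TMM scale. CCNL1, a cyclin of the splicing-linked kinase CDK11, read 29.1, 23.7 and 32.9 CPM with vehicle and 113, 92.3, 87.8 and 112 CPM with KB-0742, a change of 1.83 ± 0.19 (adjusted p = 2.7e-11) by TMM. On the spike-in scale it stood at 0.50 and was not called (adjusted p = 0.38). CCNL2, the related cyclin, read 39.9, 39.7 and 36.4 CPM with vehicle and 146, 135, 203 and 154 CPM with KB-0742, a change of 2.04 ± 0.18 (adjusted p = 1.4e-13) by TMM. Its spike-in value was 0.64, without a call (adjusted p = 0.24). The treated libraries of both lay wholly above vehicle, as naming from a list required. CDK12, a kinase of the elongating polymerase, changed by 1.07 ± 0.25 (adjusted p = 0.00066) on the TMM scale and stood at −0.27 on the spike-in scale. MNAT1, a subunit of the CDK7 kinase complex, changed by −1.44 ± 0.28 (adjusted p = 4e-05). Of 15 tested genes in the list of other transcription kinases and cyclins, 3 were higher, 1 lower and 11 neither, with a median of 0.09 by TMM and −1.45 by spike-ins.

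Of 12 RNA polymerase II subunits, 7 were higher and 2 lower, or 6 and 1 without both replicate 3 libraries, with a median of 0.53 by TMM, −0.11 by total counts and −0.82 by spike-ins. POLR2F, a small subunit shared with the other nuclear polymerases, changed by 0.85 ± 0.11 by TMM and stood at −0.44 by spike-ins, while POLR2C changed by −0.53 ± 0.15 (adjusted p = 0.0033). The largest subunit, POLR2A, changed by −0.42 ± 0.16 (adjusted p = 0.033), a call that was lost without KB-0742 replicate 1, 2 or 3 or vehicle replicate 3 or 4 in turn, at adjusted p from 0.0911 to 0.129. Of 29 Mediator subunits, 5 were higher and 11 lower, with a median of −0.27. MED29 read 56.8, 44.96 and 60.4 CPM with vehicle and 13, 12.7, 9.05 and 15.9 CPM with KB-0742, a change of −2.06 ± 0.23 (adjusted p = 2.2e-10). Its groups did not overlap, as naming from a list required. MED10 and MED6 changed by −1.77 ± 0.29 and −1.47 ± 0.26. MED13, a subunit of the kinase module, changed by 1.24 ± 0.22 by TMM and stood at −0.23 by spike-ins. MED17, a head subunit, changed by 1.72 ± 0.40 by TMM and stood at 0.26 by spike-ins without a call (adjusted p = 0.69).

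Of 38 genes of the Integrator complex and of 3′ end processing, 6 were higher and 14 lower, or 5 and 8 without both replicate 3 libraries. CPSF4, a subunit of the complex that reads the polyadenylation signal, changed by −2.28 ± 0.37. WDR33, which contacts the same signal, changed by 1.18 ± 0.18 and CLP1, an RNA kinase of the cleavage machinery, by 1.13 ± 0.26 by TMM, and both were below 0 by spike-ins, at −0.07 and −0.10.

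Splicing factors were called in both directions. Of 51 core spliceosome genes, 34 were higher and 4 lower, with a median of 0.49 by TMM, −0.14 by total counts and −0.83 by spike-ins. SNRPD2, a core Sm protein, read 1408, 1312 and 1373 CPM with vehicle and 2773, 3004, 2834 and 3001 CPM with KB-0742, a change of 1.09 ± 0.08 by TMM and a value of −0.22 by spike-ins. SNRNP40, a protein of the U5 particle, changed by −1.53 ± 0.16. Of 34 SR proteins and splicing kinases, 12 were higher and 6 lower, with a median of 0.20 by TMM and −1.15 by spike-ins. LUC7L3, a U1-associated SR-like protein, read 139, 139 and 140 CPM with vehicle and 39.7, 32.7, 48.8 and 26.9 CPM with KB-0742, a change of −1.94 ± 0.15 (adjusted p = 7.1e-15), with a wide gap between the groups. PNISR and SRSF5, both SR-type proteins, changed by −2.32 ± 0.24 and −1.28 ± 0.16. RSRC2, another, read 37.2, 36.6 and 27.5 CPM with vehicle and 168, 138, 108 and 143 CPM with KB-0742, a change of 2.04 ± 0.19 (adjusted p = 8e-13) by TMM. By spike-ins it stood at 0.83 without a call (adjusted p = 0.14). SRRM2, a scaffold of nuclear speckles, changed by 1.23 ± 0.15 by TMM and stood at −0.10 by spike-ins.

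**Figure D2:**
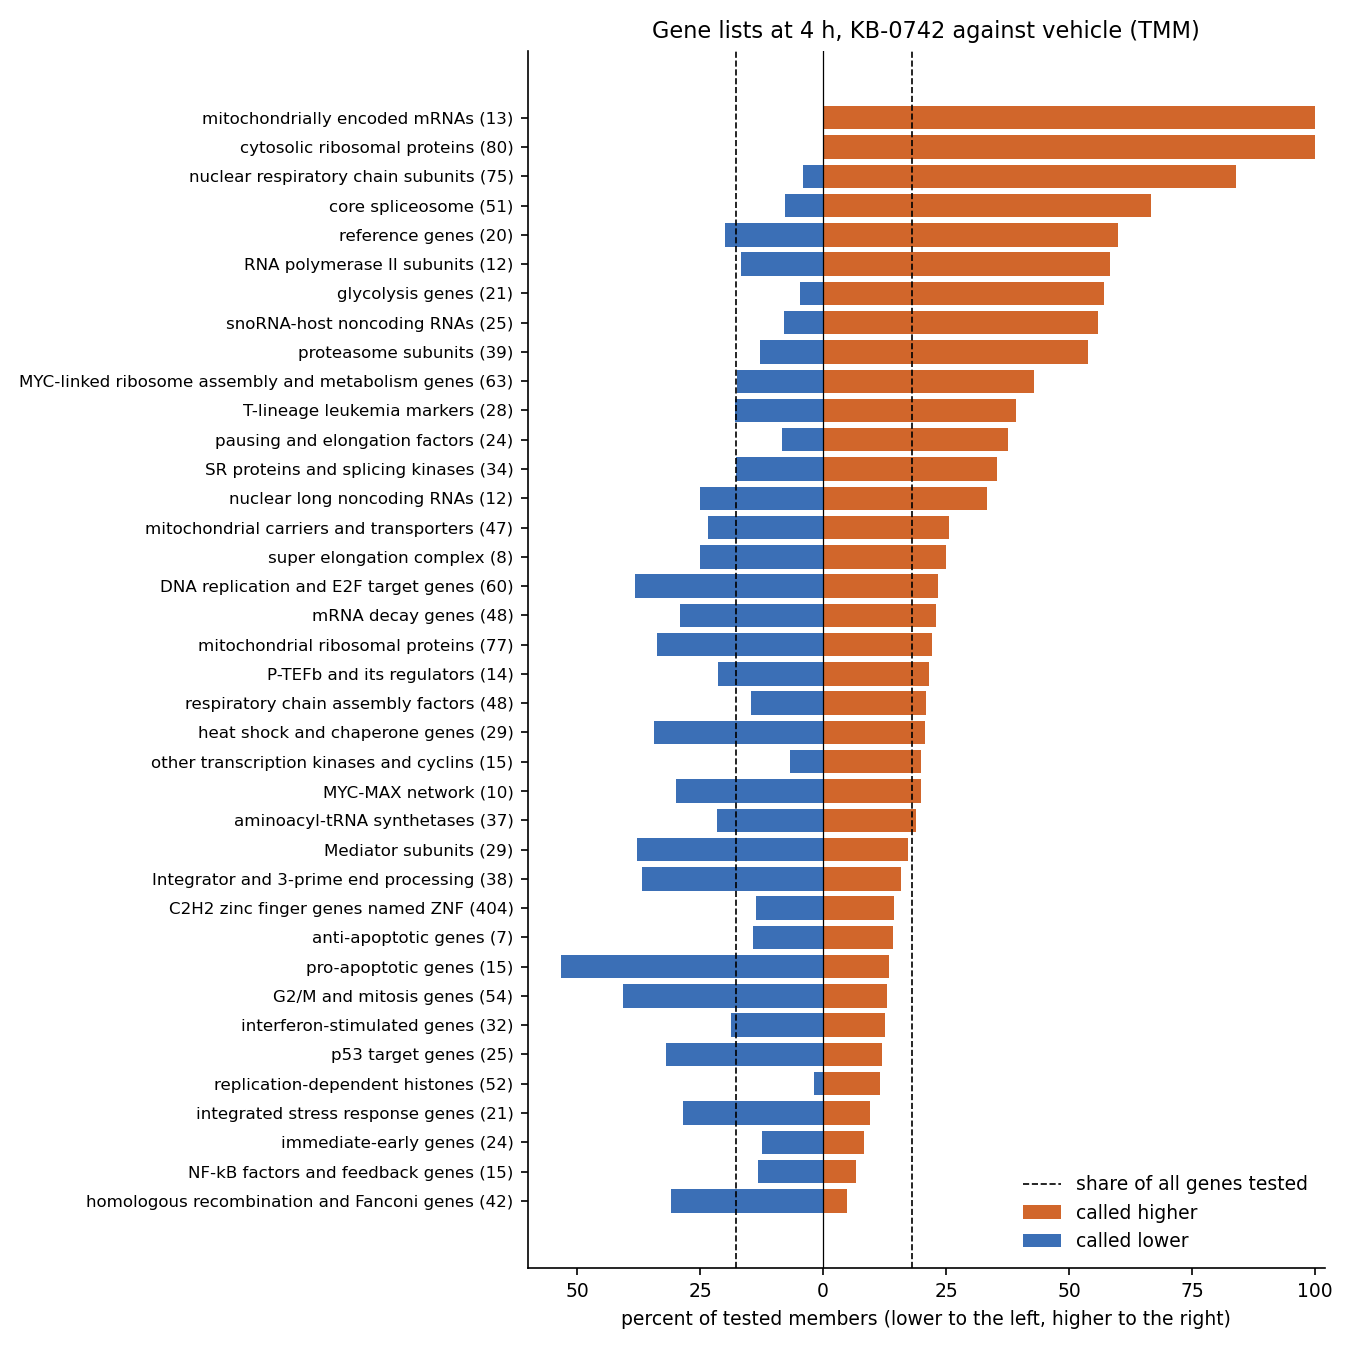
Share of the tested members of each gene list called higher (right, orange) or lower (left, blue) with KB-0742 at 4 h in MOLT4, with the number of tested members in brackets. Dashed lines mark the shares over all 11664 tested genes, 18.1% higher and 17.7% lower. All 80 cytosolic ribosomal protein genes and all 13 mitochondrially encoded mRNAs are called higher on this TMM scale, and the medians of both lists are below 0 on the spike-in scale. Of all 467 tested genes with a mean log2 CPM of 8 or more, 89.3% are called higher by TMM.

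Of 10 tested genes of the MYC and MAX network, 2 were higher, 3 lower and 5 neither, or 1 higher and 3 lower without both replicate 3 libraries, with a median of −0.11 by TMM and −1.54 by spike-ins. MYC read 183, 128 and 156 CPM with vehicle and 309, 324, 264 and 359 CPM with KB-0742 on the TMM scale, with no overlap, and its change was 1.02 by TMM, with values of −0.28 by spike-ins and −0.08 (adjusted p = 0.79) by limma on log2 TPM. MAX, its dimerization partner, averaged 118 ± 1.02 CPM (SD, n = 3) with vehicle and read 67.6, 66.4, 75.2 and 62.3 CPM with KB-0742. Its change was −0.80 ± 0.14 (adjusted p = 4e-06), or −2.15 by spike-ins, with no overlap, as naming from a list required. MXD3, which competes with MYC for MAX, changed by −1.49 ± 0.22 (adjusted p = 2.1e-07), or −2.78 by spike-ins. Of 63 ribosome assembly and metabolism genes linked to MYC, 27 were higher and 11 lower, or 26 and 6 without both replicate 3 libraries, with a median of 0.25 by TMM, −0.39 by total counts and −1.06 by spike-ins. GNL3, the nucleolar GTPase nucleostemin, changed by −1.60 ± 0.21. EIF5A, a translation factor, changed by 1.04 ± 0.11 and RRS1, a ribosome assembly factor, by 1.00 ± 0.19 by TMM, and both were below 0 by spike-ins, at −0.25 and −0.26.

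More pro-apoptotic genes were lower than higher. Of 15 tested, 2 were higher and 8 lower, with a median of −0.96, and without both replicate 3 libraries 0 were higher and 4 lower. BAK1, a pore-forming protein of the mitochondrial outer membrane, read 70.8, 81.3 and 81.9 CPM with vehicle and 12.4, 15.8, 16.7 and 16.3 CPM with KB-0742, a change of −2.34 ± 0.20 (adjusted p = 1.6e-13). DIABLO, which relieves caspases of their inhibitors, changed by −0.77 ± 0.19 (adjusted p = 0.00087). The anti-apoptotic MCL1 was not called by TMM, at 7.66, 8.66 and 7.89 CPM with vehicle and 4.55, 5.27, 6.97 and 8.55 CPM with KB-0742, a value of −0.33 ± 0.34 (adjusted p = 0.48) with overlapping groups. By edgeR it was called lower with spike-in scaling, at −1.69 (adjusted p = 0.015), and with total-count scaling, at −0.96 (adjusted p = 0.015). By limma on log2 TPM it was also called lower, at −0.72 (adjusted p = 0.00057). Of 25 tested p53 targets, 3 were higher and 8 lower, or 3 and 5 without both replicate 3 libraries. Among them TIGAR, a regulator of glucose breakdown, changed by −1.89 ± 0.38 and DDB2, a DNA damage sensor, by −1.59 ± 0.29. MDM2, the ligase that degrades p53, changed by 0.80 ± 0.21 (adjusted p = 0.0024) by TMM and stood at −0.57 by spike-ins.

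Of 60 DNA replication and E2F target genes, 14 were higher and 23 lower. RFC4, a subunit of the clamp loader, read 78.7, 76.5 and 80.5 CPM with vehicle and 6.50, 8.44, 7.66 and 9.37 CPM with KB-0742, a change of −3.26 ± 0.22 (adjusted p = 4.1e-16). RFC4 overlaps EIF4A2, and reads of the shared stretch cannot be assigned to 1 of them without strand. POLA2, of the primase complex, changed by −2.36 ± 0.26 and ORC6, of the origin recognition complex, by −2.24 ± 0.23. CDT1, the licensing factor, changed by 0.93 ± 0.26 (adjusted p = 0.0046) by TMM and stood at −0.38 by spike-ins. Of 42 homologous recombination and Fanconi genes, 2 were higher and 13 lower, with a median of −0.38. BRCA1 changed by −1.27 ± 0.29 and XRCC3 by −1.61 ± 0.30. Of 54 G2/M and mitosis genes, 7 were higher and 22 lower, or 4 and 18 without both replicate 3 libraries. CCNB1, the mitotic cyclin, changed by −1.67 ± 0.22 and the kinetochore gene NDC80 by −1.83 ± 0.38. CCNA2, the S and G2 cyclin, changed by 0.77 ± 0.13 by TMM and stood at −0.55 by spike-ins.

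Of 29 heat shock and chaperone genes, 6 were higher and 10 lower, with a median of 0.02 by TMM and −1.25 by spike-ins. HSPA8, the constitutive HSP70, read 2872, 2502 and 2076 CPM with vehicle and 1238, 1317, 1148 and 1316 CPM with KB-0742, a change of −0.99 ± 0.12 (adjusted p = 5.1e-08), and the HSP90 co-chaperone CHORDC1 changed by −1.40 ± 0.29. Of 32 interferon-stimulated genes, 4 were higher (12.5%), 6 lower (18.8%) and 22 neither, beside 18.1% and 17.7% of all tested genes. Among the lower ones IFI44 changed by −1.95 ± 0.35. Of 52 tested replication-dependent histone genes, whose mRNAs lack poly(A) tails, 6 were higher and 1 lower, and without both replicate 3 libraries the counts were 2 and 1. Their median was 0.29 by TMM and −1.02 by spike-ins.

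Every tested gene of the cytosolic ribosome was called higher on the TMM scale. So were 89.3% of all 467 tested genes with a mean log2 CPM of 8 or more, with a median of 0.80. The 80 changes ran from 0.68 to 1.18 with a median of 1.00, and the median by spike-ins was −0.29. As a share of all gene counts, with no scaling, these genes took 21.1%, 20.9% and 20.6% with vehicle and 26.6%, 26.8%, 26.5% and 27.6% with KB-0742. All 13 mRNAs encoded in the mitochondrial genome, which a separate polymerase transcribes, were called higher, with a median of 1.16 by TMM and −0.17 by spike-ins. MT-CYB, cytochrome b, read 1788, 1946 and 2074 CPM with vehicle and 3783, 4119, 4597 and 5154 CPM with KB-0742, a change of 1.19 ± 0.10 by TMM and a value of −0.14 by spike-ins. The share of gene counts from these mRNAs was 3.24%, 3.56% and 3.68% with vehicle and 4.46%, 4.63%, 5.42% and 5.29% with KB-0742. Both shares separated the groups without overlap. The part of expression level in the counts of calls for these and the following lists was not tested.

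Of 75 nuclear genes for respiratory chain and ATP synthase subunits, 63 were higher and 3 lower, with a median of 0.74 by TMM and −0.53 by spike-ins. ATP5F1E, the epsilon subunit of ATP synthase, changed by 1.13 ± 0.10 by TMM and stood at −0.21 by spike-ins. Among the lower members were NDUFV2, of complex I, at −0.79 ± 0.15 and SDHA, of complex II, at −0.65 ± 0.18. Mitochondrial ribosomal proteins were more divided, with 17 of 77 higher and 26 lower. MRPL46 read 51.8, 52.2 and 50.03 CPM with vehicle and 5.85, 6.86, 4.18 and 2.85 CPM with KB-0742, a change of −3.40 ± 0.32 (adjusted p = 2.2e-12). MRPL39 and MRPL32 changed by −3.07 ± 0.29 and −2.41 ± 0.28. Of 47 mitochondrial carriers and transporters, 12 were higher (25.5%) and 11 lower (23.4%), beside 18.1% and 17.7% of all tested genes. TOMM40, the outer membrane import channel, changed by 1.76 ± 0.25 by TMM and stood at 0.38 by spike-ins without a call (adjusted p = 0.52).

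Of 21 glycolysis genes, 12 were higher and 1 lower, with a median of 0.77 by TMM and −0.50 by spike-ins. Enolase (ENO1) changed by 0.96 ± 0.09 and GAPDH by 0.89 ± 0.08 by TMM, and both were below 0 by spike-ins, at −0.28 and −0.38. The lower gene was PFKP, the platelet form of phosphofructokinase, which read 87.2, 94.7 and 113 CPM with vehicle and 18.9, 46.9, 36.2 and 45.2 CPM with KB-0742, a change of −1.39 ± 0.20 (adjusted p = 1.5e-07). Of 39 proteasome subunits, 21 were higher and 5 lower, with a median of 0.34 by TMM, −0.30 by total counts and −0.91 by spike-ins. PSMC6, an ATPase of the regulatory particle, changed by −1.45 ± 0.17, and PSMB5, the chymotrypsin-like catalytic subunit, by −1.21 ± 0.13. PSME1, an activator subunit, changed by 0.88 ± 0.08 by TMM and stood at −0.43 by spike-ins. Of 20 genes commonly used as references, 12 were higher and 4 lower, with a median of 0.63 by TMM, −0.01 by total counts and −0.65 by spike-ins.

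Noncoding RNAs that host small nucleolar RNAs were higher in 14 of 25 cases and lower in 2, with a median of 0.62 by TMM, −0.03 by total counts and −0.69 by spike-ins. SNHG15 read 189, 163 and 173 CPM with vehicle and 479, 551, 568 and 545 CPM with KB-0742, a change of 1.61 ± 0.14 (adjusted p = 4.4e-13), or 0.28 by spike-ins and −0.27 by limma on the deposited log2 TPM values. SNHG17 changed by 1.69 ± 0.16, or 0.32 by spike-ins. SNHG12, which overlaps TRNAU1AP, changed by −1.35 ± 0.27. NEAT1, the scaffold of paraspeckles, changed by −1.54 ± 0.34. HELLPAR, a long noncoding RNA with IGF1 and PMCH on the other strand, read 9.24, 12.6 and 8.70 CPM with vehicle and 80.6, 77.5, 110 and 48.9 CPM with KB-0742, a change of 2.94 ± 0.27 by TMM, 1.57 by spike-ins and 0.15 (adjusted p = 0.047) by limma on log2 TPM.

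Among the 12 genes at each end of the ranking, RPL21P28 had the largest rise, from 4.23, 8.38 and 3.26 CPM with vehicle to 59.8, 74.4, 84.97 and 54.2 CPM with KB-0742. It is a processed pseudogene of a ribosomal protein gene, and reads of the parent gene may be counted in it. Processed pseudogenes as a class were called higher in 80 of 281 cases (28.5%) and lower in 5 (1.78%), with a median of 0.91 by TMM. RPL30-AS1 (2.89 ± 0.38) and PRC1-AS1 (2.47 ± 0.39) lie antisense to coding genes, and their reads cannot be told from those of the other strand. Coding genes at this end included DNHD1 (2.54 ± 0.36), the zinc finger gene ZNF350 (2.40 ± 0.42), TOGARAM1 (2.39 ± 0.33) and UHRF2, a ubiquitin ligase of chromatin (2.32 ± 0.35). By spike-ins these 4 coding genes lay between 0.94 and 1.29.

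At the low end, PBK, a mitotic kinase, read 35.7, 45.5 and 39.7 CPM with vehicle and 4.55, 4.22, 4.88 and 5.29 CPM with KB-0742, a change of −3.07 ± 0.27 (adjusted p = 3.5e-13). C8orf76 changed by −3.24 ± 0.40, GIMAP2, an immune GTPase, by −3.19 ± 0.46, and PPM1K, the phosphatase of branched-chain ketoacid dehydrogenase, by −2.95 ± 0.36. ZFAND6 and PEX3, a factor of peroxisome formation, changed by −2.82 ± 0.28 and −2.81 ± 0.34, and the kinase gene STK38 by −2.79 ± 0.37. The groups did not overlap in any of these genes, as the naming rule required. Of the 111 genes with values given here, 46 overlap another coding gene, 36 on the opposite strand and 10 on the same one. They include MEPCE, LEO1, MED17, CPSF4, SNRPD2, MAX, GNL3, CCNA2, MRPL46, MRPL32, C14orf119 and PBK. The counting is not stated to use strand, so reads from overlapping genes cannot be told apart.

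Of 28 tested T-lineage markers, 11 were higher and 5 lower, or 10 and 3 without both replicate 3 libraries, with a median of 0.23 by TMM and −1.08 by spike-ins. CD3D, a chain of the T cell receptor complex, read 942, 987 and 945 CPM with vehicle and 1465, 1546, 1444 and 1478 CPM with KB-0742, a change of 0.63 ± 0.10 by TMM and values of −0.01 by total counts, −0.66 by spike-ins and −0.41 (adjusted p = 0.044) by limma on log2 TPM. DNTT, the terminal transferase of early lymphocytes, changed by 0.74 ± 0.13 and MYB, a transcription factor of T-lineage leukemia, by 0.65 ± 0.18 by TMM, and both were below 0 by spike-ins, at −0.48 and −0.70. CD2, an adhesion receptor, changed by −1.33 ± 0.34. In summed CPM with no TMM scaling, the 30 markers stood between 5183 and 5415 with vehicle and between 4315 and 4397 with KB-0742.

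The direction of a call moved with the expression level of the gene. Of 467 genes with a mean log2 CPM of 8 or more, 89.3% were called higher and 1.71% lower, with a median of 0.80 by TMM and −0.49 by spike-ins. Between 6 and 8, 50.5% of 1209 genes were higher and 12.6% lower, with a median of 0.36 by TMM and −0.93 by spike-ins. Between 4 and 6 the shares were 20.7% and 22.1% of 3278 genes, and between 2 and 4 they were 7.05% and 19.7% of 3955. Below 2, 4.43% of 2755 genes were higher and 14.6% lower, with a median of −0.57 by TMM and −1.97 by spike-ins. Among protein-coding genes, those called higher had a median gene length of 21243 bases and 7 exons, those called lower 28450 bases and 9 exons, and those not called 37777 bases and 10 exons. The lengths moved with the level as well: at 8 or more the median length of higher genes was 8412 bases, and between 2 and 4 it was 37891. The part of level, depth and scaling in these shares was not tested.

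**Figure D3:**
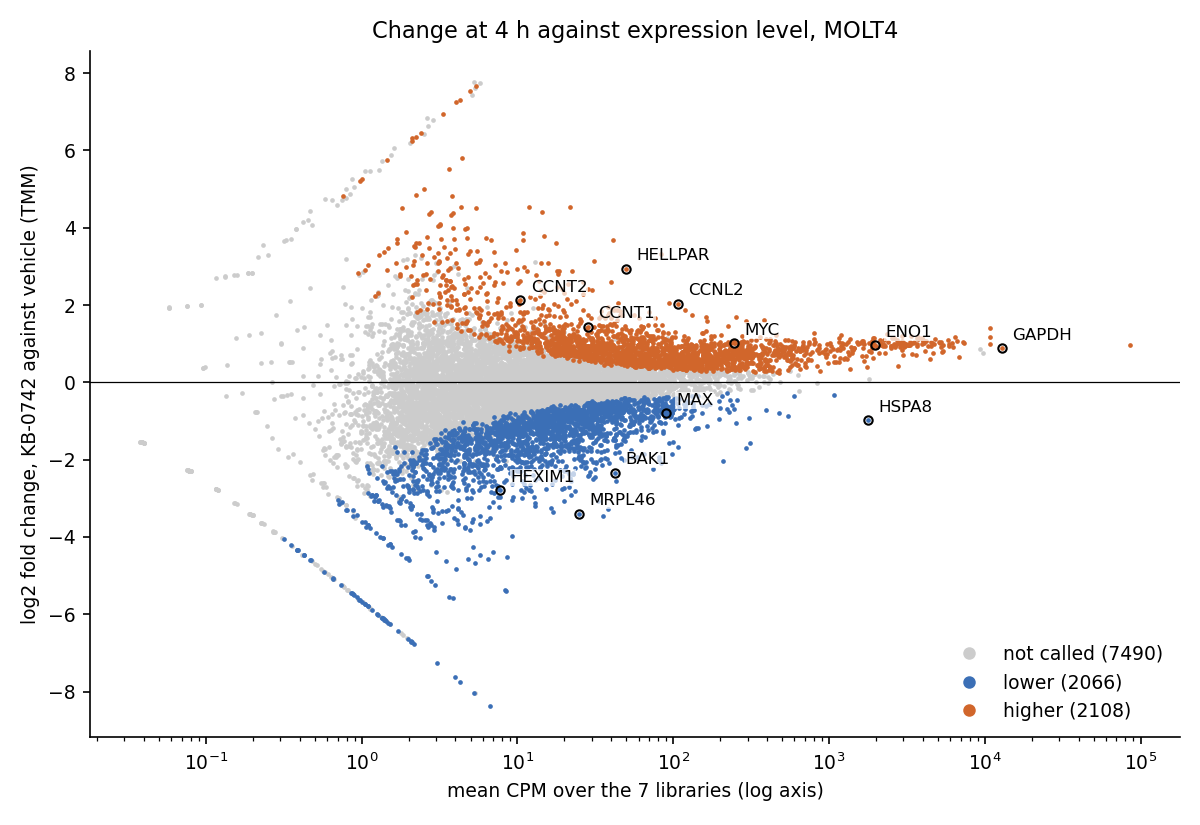
Log2 fold change of each tested gene between KB-0742 and vehicle at 4 h in MOLT4 (TMM, vertical axis) against its mean level over the 7 libraries in CPM (log axis). Orange points are the 2108 genes called higher, blue points the 2066 called lower and gray points the rest. Most genes at the right edge, such as GAPDH and ENO1, lie above 0 on this scale (both are below 0 by spike-ins), and HSPA8 lies below it.

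The effect of KB-0742 at 4 h was set against that at 2 h and at 8 h, each with its own vehicle group, to ask at which genes the effect differed between times. The 4 h libraries enter both the calls at 4 h and these differences. Between 2 h and 4 h the effect differed in 3.15% of tested genes (367), and between 4 h and 8 h in 17.8% (2071). The first count was 214, 172 and 220 without DMSO 4 h replicate 1, 3 and 4 in turn. By spike-in scaling edgeR called 0 genes for either difference, and 731 and 888 had an unadjusted p under 0.05. Of the genes called higher at 4 h, 1242 were also called higher at 2 h, which is 58.9% of the 4 h list and 80.9% of the 2 h list, and of those called lower 913 were shared (44.2% and 60.7%). Of all tested genes, 13.2% were called higher and 12.9% lower at 2 h. At 8 h the shared genes were 1422 higher (67.5% and 52.1%) and 1218 lower (59.0% and 40.5%), while 106 of the genes higher at 4 h were lower at 8 h and 92 of the lower ones were higher. Of all tested genes, 23.4% were called higher and 25.8% lower at 8 h.

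Several genes differed in effect between 2 h and 4 h. HELLPAR stood at 0.27 at 2 h, 2.94 at 4 h (adjusted p of the difference 3.9e-05) and 4.32 at 8 h. By limma on log2 TPM its step from 2 h to 4 h was 0.17 and did not pass the test (adjusted p = 0.374), and the calls of this step for MED17, DNHD1, ZNF324 and GPATCH3 were lost as well, at adjusted p from 0.0603 to 0.127. CCNL1 stood at 0.22, 1.83 and 2.92 at the 3 times, with an adjusted p of 8.4e-05 for the step from 2 h to 4 h. HSPA8 stood at 0.04, −0.99 and −1.17, MAX at 0.02, −0.80 and −0.16, and CHORDC1 at 0.03, −1.40 and −0.65. Among genes already below vehicle at 2 h, RFC4 went from −1.18 to −3.26, MRPL39 from −0.75 to −3.07 and C14orf119, an open reading frame gene, from −1.002 to −3.47. HEXIM1 stood at −2.51, −2.80 and −2.0, and neither step passed the test (adjusted p = 0.89 and 0.42). The calls of the step from 2 h to 4 h for NINJ1, a membrane rupture protein, MED17 and DNHD1 were each lost without 1 or more single libraries, at adjusted p from 0.0512 to 0.0772: NINJ1 without vehicle replicate 4 or KB-0742 replicate 2, MED17 without vehicle replicate 3 or 4, and DNHD1 without vehicle replicate 1 or 3.

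Other genes were lower at 4 h and near or above vehicle at 8 h on the TMM scale, to which the values of this paragraph belong. On the spike-in scale the median over all genes at 8 h was −1.41, with 71 genes called higher and 6332 lower. A value near 0 by TMM at 8 h thus need not be near 0 on that scale. LUC7L3 stood at −1.94 at 4 h and 0.36 at 8 h (adjusted p of the difference 6.1e-12), LEO1 at −1.65 and 1.05, and NELFA at −0.77 and 0.88. CCNB1 went from −1.67 to 0.45, MED10 from −1.77 to 0.61, and NIFK, a nucleolar partner of the Ki-67 protein, from −1.30 to 1.36. THAP3 went from −1.86 to 0.87, and BAK1 from −2.34 to −0.40. PBK and MRPL46 went from −3.07 and −3.40 to −0.27 and −0.38. Other effects grew: SLC25A4, an isoform of the ADP/ATP carrier, went from −1.30 to −4.17, GLRX, glutaredoxin, from −0.53 to −2.85, and RPUSD3 from −0.90 to −3.03. MYC was 0.91 at 2 h, 1.02 at 4 h and −0.04 at 8 h by TMM, and the step from 4 h to 8 h passed the test (adjusted p = 0.00016). The median of the G2/M list went from −0.29 to 0.68 and that of the Mediator list from −0.27 to 0.48, beside −0.04 and −0.10 for all genes.

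**Figure D4:**
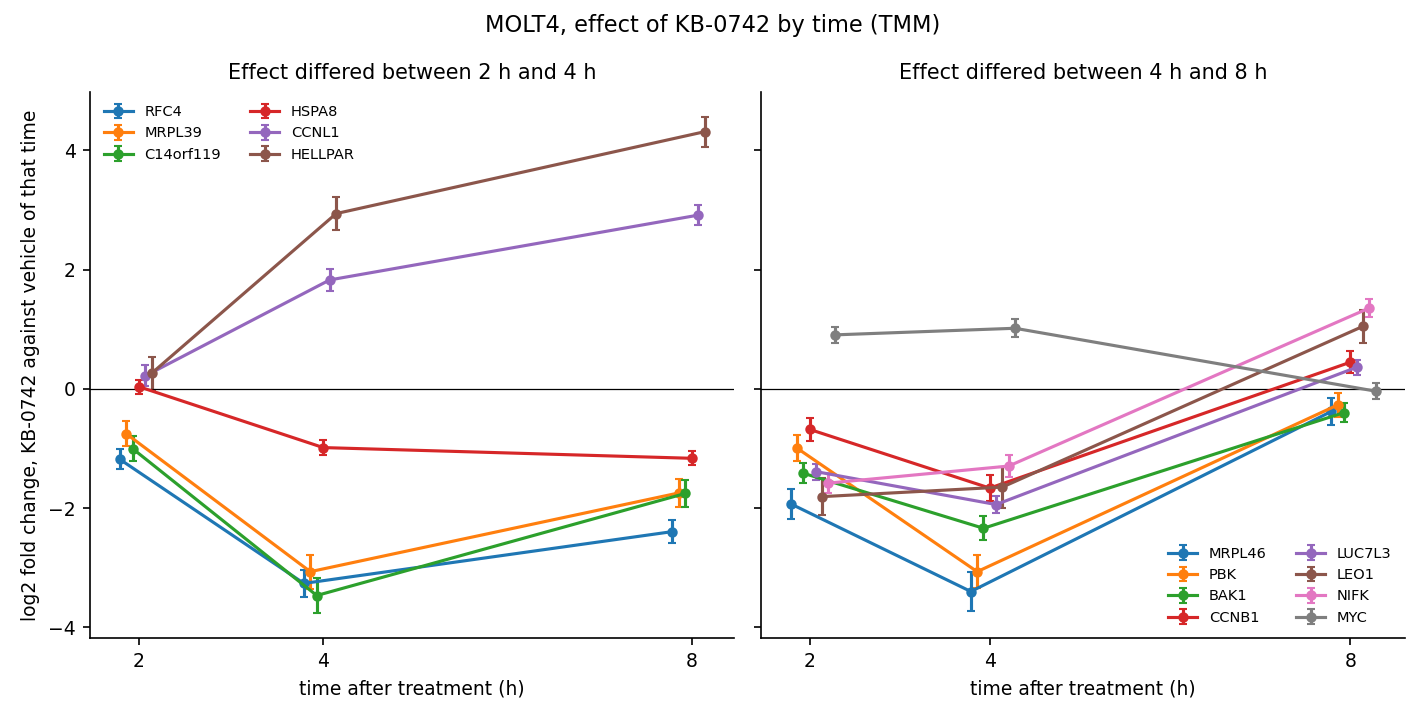
Log2 fold change of KB-0742 against vehicle of the same time in MOLT4 (TMM) at 2, 4 and 8 h, with standard errors, for genes whose effect differed between 2 h and 4 h (left) or between 4 h and 8 h (right). On the left HELLPAR and CCNL1 lie farther above 0 at 4 h than at 2 h and RFC4, MRPL39 and C14orf119 farther below it. On the right LUC7L3, LEO1, CCNB1 and NIFK cross from below 0 at 4 h to above 0 at 8 h.

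KB-0742 and the degrader KI-CDK9d-32 were compared directly at 4 h, since their contrasts with vehicle share the 3 vehicle libraries. They differed in 35.7% of tested genes, with KB-0742 higher in 2457 and lower in 1707 by TMM, in 1838 and 2382 by total counts, and in 744 and 895 by spike-ins. No dose is given for either compound, so the difference is between these treatments as applied. With KB-0742 MYC stood at 1.02 and with the degrader at −2.77, a difference of 3.78 ± 0.17 (adjusted p = 5.1e-23). HEXIM1 stood at −2.80 with KB-0742 and −0.35 with the degrader, a difference of −2.45 ± 0.46 (adjusted p = 2.6e-05). CCNT1 differed by 1.55 ± 0.26 (adjusted p = 2.9e-06) and CDK9 by 0.81 ± 0.33 (adjusted p = 0.047), while CCNT2 did not pass the test at 0.63 ± 0.30 (adjusted p = 0.092).

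Some genes had values of opposite sign with the compounds on the TMM scale. SNHG15 stood at 1.61 with KB-0742 and −1.74 with the degrader. Of 25 snoRNA-host RNAs 19 were higher with KB-0742 than with the degrader and 0 lower, beside 2457 and 1707 of all 11664 tested genes. TOGARAM1 stood at 2.39 and −2.91, ADPGK-AS1, which lies antisense to ADPGK, at 1.46 and −3.75, and CLP1 at 1.13 and −2.97. ZNF622, a ribosome assembly factor, stood at 1.38 and −3.08, the lysosomal protease gene CTSZ at 1.65 and −2.67, and MUL1, a mitochondrial ubiquitin ligase, at 1.36 and −2.76. In the other direction TRIM66 stood at −1.97 and 1.97, LUC7L3 at −1.94 and 0.15, and PNISR at −2.32 and 0.41. LRRC20 stood at −2.79 and 0.20. PBK, at −3.07 with KB-0742, was near 0 with the degrader at −0.06. The direct difference passed the test in each of these genes. Of 404 zinc finger genes named ZNF, 58 were higher (14.4%) and 55 lower (13.6%) with KB-0742 against vehicle, beside 18.1% and 17.7% of all tested genes. Against the degrader 148 were higher and 30 lower with KB-0742, beside 2457 and 1707 of all 11664 tested genes. Values for MED10 were −1.77 and −1.66, with a difference that did not pass the test (adjusted p = 0.82), and CD3D stood at 0.63 and 0.54 (adjusted p = 0.46).

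**Figure D5:**
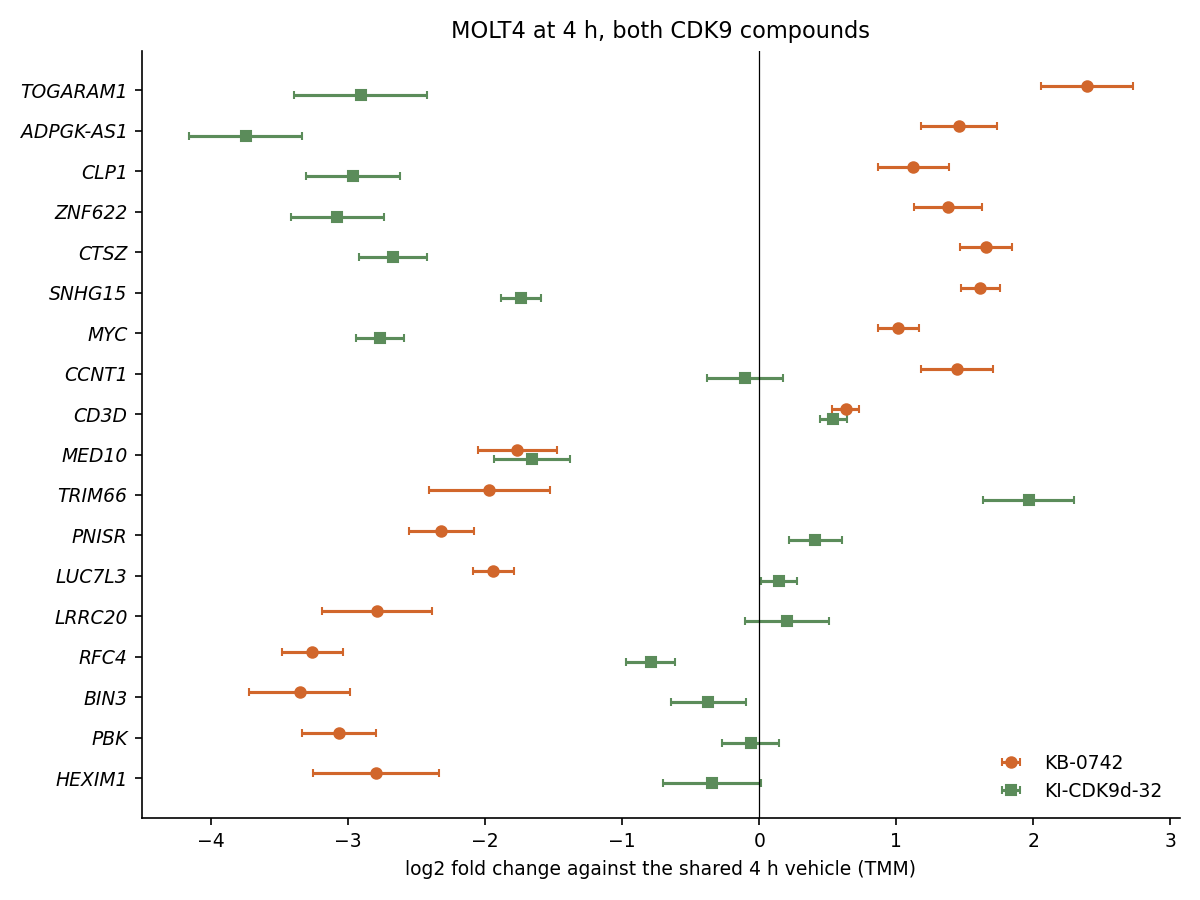
Log2 fold change against the shared vehicle libraries at 4 h in MOLT4 (TMM), with standard errors, for KB-0742 (orange circles) and KI-CDK9d-32 (green squares). From the top, TOGARAM1 to MYC lie above 0 with KB-0742 and below 0 with the degrader, CD3D and MED10 lie close together, and HEXIM1, PBK and BIN3 lie far lower with KB-0742 than with the degrader.

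In the other lines KB-0742 was set against its own vehicle at 4 h. It called 23.9% of tested genes in PSN1 and 31.6% in RH4, and the difference between lines was not tested. Of 10030 genes tested in both MOLT4 and PSN1, 901 were higher in both, which is 46.1% of the MOLT4 list and 69.4% of the PSN1 list, and 625 were lower in both (33.2% and 49.0%). Of 9911 tested in MOLT4 and RH4, 1132 were higher in both (58.4% and 69.0%) and 983 lower (52.5% and 58.5%). Of the genes tested in both lines of a pair, 12.9% were called higher and 12.7% lower in PSN1, and 16.5% and 17% in RH4. HEXIM1 stood at −2.80 (MOLT4), −1.57 (PSN1) and −2.09 (RH4), and CCNT1 at 1.45, 1.74 and 1.41, called in all 3 lines. CCNT2 stood at 2.12, 1.72 and 0.11, and was not called in RH4. LUC7L3 stood at −1.94, −1.87 and −2.65, RFC4 at −3.26, −1.68 and −2.48, and HELLPAR at 2.94, 3.46 and 2.60. MYC stood at 1.02, −0.16 and 0.14, and was not called in PSN1 or RH4. PBK stood at −3.07, 0.01 and −0.64, and MAX at −0.80, −0.23 and −0.37. PSMB5 was lower in MOLT4 at −1.21 and higher in PSN1 and RH4 at 0.27 and 0.35.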

How the data were processed

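RNA from lysates of MOLT4, PSN1 and RH4 was made into cDNA with SMART-seq2 in small volumes and into libraries with Nextera XT, per the labels' protocols, which mention neither strand nor molecular identifiers. The deposited gene tables hold estimated counts as whole numbers, and separate deposited tables hold log2 TPM values. Salmon and the hg38 build are named in the submitters' processing notes, and the Salmon version is not given in the sources used here. Counts were used as deposited. ERCC, SIRV and PAR_Y rows were left out of tests and gene totals, and ERCC and SIRV sums gave the second scaling.

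Each line was fitted with all its groups in edgeR 4.0.16 (R 4.3.3) with TMM scaling, filterByExpr at a minimum count of 10 and the quasi-likelihood test, with Benjamini-Hochberg adjustment at 0.05. Standard errors are the size of the log2 fold change divided by the square root of the F statistic. Alternatives were spike-in scaling, DESeq2 1.42.0, no filter, only the groups compared, a replicate block, limma 3.58.1 on log2 TPM and leaving out each library. Total-count scaling, leaving out replicate 3 libraries and the paired spike-in share were chosen after seeing the data. Only the edgeR fit with TMM scaling was tested on simulated counts, in which few genes were changed, in equal numbers up and down. That setting lacks the broad shift seen here on the spike-in scale, so it cannot show how the fit behaves under such a shift.

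The comparison, the 39 gene lists and the naming rules were chosen with earlier results of these data known. Named were 8 fixed genes, and the 12 highest and 12 lowest called genes whose log2 CPM averaged 3 or more, with no overlap between groups and a call kept without each of the 7 libraries. Up to 3 higher and 3 lower genes per list that met the same conditions were also named, and 6 in each direction per difference. Genes without a symbol were left out, as were genes named for a difference whose 4 h call was lost without a library, an omission chosen with their values in view. Some genes the rules name are not reported here. Promoters are from RefSeq tables and gene positions from GENCODE 29.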

Additional observations from a re-analysis of the deposited data

Results flagged for a closer look

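Among 112 sets of 4 KB-0742 values at 4 h, 4 held a library far from the other 3, and chance alone gives about 1 in 20. These libraries read 49.4% in spike-in share, and in level 121 CPM for POLR2A, 8.36 CPM for BIN3 and 0 CPM for TRIM66.

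For 38 of the 111 named genes the KB-0742 effect in MOLT4 differed between 2 h and 4 h by the edgeR quasi-likelihood test, beside 3.15% of all tested genes. Many were named for this difference or for large changes in the same 4 h libraries, so the count follows from that choice. The log2 difference, 4 h minus 2 h on the TMM scale, was above 0 for RTF1 0.85, CCNL1 1.61, CCNL2 0.94, MED17 2.18, RSRC2 1.44, RRS1 0.84, CCNA2 0.72, SNHG15 1.08, SNHG17 1.03, HELLPAR 2.68, DNHD1 1.99, ZNF324 1.94, GPATCH3 1.83, ZNF622 1.12 and MUL1 1.47. It was below 0 for MED29 −1.18, SNRNP40 −1.25, MAX −0.83, BAK1 −0.92, DDB2 −1.397, RFC4 −2.08, HSPA8 −1.02, CHORDC1 −1.43, NDUFV2 −0.92, SDHA −0.83, MRPL46 −1.47, MRPL39 −2.32, MRPL32 −1.29, PSMC6 −1.19, PFKP −1.08, C14orf119 −2.47, PBK −2.07, PPM1K −1.87, PEX3 −2.09, STK38 −2.37, NINJ1 −2.24, SLC25A4 −1.04 and GLRX −0.66.

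For 39 of the 111 named genes the effect differed between 4 h and 8 h by the same test, beside 17.8% of all tested genes. This count too follows from how the genes were named. The log2 difference, 8 h minus 4 h, was above 0 for PPM1A 1.66, LEO1 2.697, NELFA 1.65, CCNL1 1.09, MED10 2.37, MED6 1.54, PNISR 1.06, LUC7L3 2.302, RSRC2 0.75, SNRNP40 0.75, MAX 0.65, GNL3 2.03, BAK1 1.94, DIABLO 1.31, TIGAR 1.81, RFC4 0.87, ORC6 1.498, CCNB1 2.11, CCNA2 0.82, MRPL46 3.02, MRPL39 1.32, MRPL32 1.095, PSMC6 1.32, PSMB5 0.80, HELLPAR 1.37, MYB 1.07, BIN3 2.23, C14orf119 1.71, C8orf76 1.95, PBK 2.797, ZFAND6 1.79, THAP3 2.73 and NIFK 2.65. It was below 0 for MYC −1.05, CD3D −0.74, DNTT −0.50, SLC25A4 −2.87, GLRX −2.32 and RPUSD3 −2.12. By spike-in scaling edgeR called 0 genes for either step, with 731 and 888 at an unadjusted p under 0.05.

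PSMB5 was lower with KB-0742 in every MOLT4 library at 4 h, at −1.21, and higher in PSN1 at 0.27. The difference between the lines was not tested.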

How the results depend on the processing

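Of the 47 named genes called higher at 4 h in MOLT4, spike-in scaling left 3 called, 22 above 0 without a call and 22 below 0, and limma on log2 TPM left 13, 21 and 13. All 62 called lower kept their call under both, and all calls were kept with DESeq2, with no filter on low counts, with only the groups compared in the fit and with the replicate block. Most of these genes were named for large changes and calls kept without each library. The median over all genes was also lower by spike-ins (−1.38) and by limma (−0.61) than by TMM (−0.04). The kept calls thus follow largely from the choice of genes and scale and do not measure how well other calls hold. With CDK9, which was not called, below 0 by spike-ins were CDK9 −0.95, ELOB −0.36, CDK12 −0.27, POLR2F −0.44, MED13 −0.23, WDR33 −0.072, CLP1 −0.095, SRRM2 −0.10, SNRPD2 −0.22, MYC −0.28, EIF5A −0.25, RRS1 −0.26, MDM2 −0.57, CDT1 −0.38, CCNA2 −0.55, MT-CYB −0.14, ATP5F1E −0.21, PSME1 −0.43, ENO1 −0.28, GAPDH −0.38, CD3D −0.66, DNTT −0.48 and MYB −0.70. Below 0 by limma were CDK9 −0.46, ELOB −0.068, POLR2F −0.23, MYC −0.083, RRS1 −0.008, CDT1 −0.11, CCNA2 −0.21, PSME1 −0.14, ENO1 −0.050, GAPDH −0.10, SNHG15 −0.27, CD3D −0.41, DNTT −0.25 and MYB −0.079. MCL1, not called by TMM, was called lower by spike-ins and by limma. The count of genes called at 4 h was 6451 by limma and, leaving out 1 library at a time, 3552 to 3936. Genes whose effect differed between 2 h and 4 h numbered 709 by DESeq2, 161 by limma, 698 with only the groups compared and 0 by spike-ins, and 172 to 357 without 1 library. Between 4 h and 8 h they numbered 789 by limma and 0 by spike-ins, and 1699 to 2048 without 1 library. The comparison of compounds called 1639 by spike-ins (3658 to 3896 without 1 library). PSN1 called 5343 by spike-ins (2347 to 2738), and RH4 7519 by spike-ins and 6247 by limma (3305 to 3476). The difference in spike-in share ran from 2.65 to 13.7 points without 1 library. The cause of these shifts was not tested. In gene levels the deviations of same-numbered vehicle and KB-0742 libraries had correlations near 0 (0.017, 0.031 and 0.03), and the numbers were not taken to pair the samples. These correlations were nonetheless above those of differently numbered libraries (−0.03 to 0.001), and spike-in share at 4 h was highest in replicate 3 of each group. Whether same-numbered libraries belong together was not tested. In same-numbered pairs the share was higher by 13.7 points on average (exact sign-flip permutation p = 0.25). With the replicate block 4230 genes were called at 4 h, 478 and 2226 for the steps between times, 4326 between compounds, 3446 in PSN1 and 4131 in RH4. The labels mention no molecular identifiers, so what depth limits covers counting error only, and low genes such as HEXIM1 with KB-0742 are the least precise.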
